A study of Arabidopsis thaliana with 6 samples.

Results

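Pectin-modifying enzymes and their inhibitors were followed in the 2 male cell types of the mature Arabidopsis pollen grain. The genes were taken from the deposited gene table by their descriptions: any description that held pectin, pectate or polygalacturonase, in upper or lower case, was accepted. This gave 256 of the 27655 genes in the table. Sperm cells (SCs) and vegetative nuclei (VN) were sorted by fluorescence-activated cell sorting from the mature pollen of 1 transgenic marker line, labelled WT in genotype. All 6 samples carry both of its transgenes, MGH3p::MGH3-GFP, a histone H3 variant tagged with a green protein under its own sperm promoter, and ACT11p::H2B-mRFP, a red histone under the promoter of an actin gene active in the vegetative cell. RNA-seq libraries were made by Smart-seq2 from 3 biological replicates of SCs and 3 of VN. SCs were sorted as whole cells and VN as nuclei, so a difference between them joins cell type with compartment and the 2 cannot be told apart. Values are transcripts per 1000000 (TPM), a level corrected for transcript length, so that levels of different genes can be set side by side. A TPM is a share of a library, so fewer transcripts of a gene and more of all others cannot be told apart either.

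Pectin is the gel of the plant primary wall, and its main chain, homogalacturonan, is secreted with its acid groups masked by methyl esters. Pectin methylesterases (PMEs) remove the esters. The bare chain can be bridged by calcium and stiffen, or it can be cut by polygalacturonases, which hydrolyse it, and by pectate lyases, which cleave it by elimination. PME inhibitors (PMEIs) bind PMEs and block them, many PMEs are made with an inhibitor-like prodomain that is removed before secretion, and pectin acetylesterases take off acetyl groups. The pollen tube, which the vegetative cell forms, grows at a tip whose wall is almost entirely pectin, soft with esterified chains at the apex and stiffer along the shank. Sperm cells are carried inside this tube and have little wall of their own.

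The descriptions alone separated the classes in part. They put 109 genes in an invertase and PME inhibitor superfamily, which holds inhibitors and enzymes alike, and 103 in a pectin lyase-like superfamily, which is a fold shared by PMEs, polygalacturonases and pectate lyases. The remaining descriptions named 12 acetylesterases, 10 PMEs, 6 pectate lyases, 5 polygalacturonases, 5 proteins of unknown function called pectinesterase, 3 PMEIs and 3 polygalacturonase inhibitors. The protein domains noted in the RefSeq annotation split both superfamilies further, and left 1 gene of the first and 2 of the second with none of the domains used. By domain, 42 genes encode a PME with the inhibitor-like prodomain, 21 a PME without it, 77 an inhibitor domain alone, 66 a polygalacturonase of glycoside hydrolase family GH28, 25 a pectate lyase and 12 an acetylesterase, and 13 carry none of these domains. Descriptions of 74 of the 77 genes with an inhibitor domain alone name invertase and PME together, so inhibitors of these 2 enzymes were not told apart. These domain classes are used below.

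The cell type labels were checked with marker genes. The summed level of 10 sperm cell markers lay between 23219 and 27438 TPM in SC libraries, against 270.1 to 754 TPM in VN libraries, and all 10 were higher in SC. The 9 vegetative cell markers summed to 73.8 to 92.0 TPM in SC and to 4151 to 4870 TPM in VN, and all 9 were higher in VN. Markers of green tissue stayed at or under 0.909 TPM in SC and 3.79 TPM in VN in sum, with 3 of 5 listed at 0 in every SC library and 2 of 5 in every VN library. Markers of the tapetum, the anther layer that feeds the pollen, summed to at most 0.607 TPM in SC and 4.80 to 13.1 TPM in VN, with 3 of 5 at 0 in every SC library and 2 of 5 in every VN library. One of them, MYB103 (AT5G56110), was called higher in VN (log2 fold change -2.92, adjusted p = 0.000136), and the part of tapetal RNA in the VN levels was not tested. Between 12418 and 15112 genes were above 0 TPM in an SC library and between 10202 and 15289 in a VN library. The paper gives a total of reads for each cell type, of similar size in both, but the number of reads in each library is unknown.

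Pectin genes formed a large part of the VN transcriptome and a small part of the SC transcriptome. Their summed level was 0.394%, 0.413% and 0.500% of all transcripts in the SC libraries, against 11.1%, 12.7% and 12.4% in the VN libraries. The lowest VN library lay far above the highest SC library. Of the 186 genes with a mean of at least 1000 TPM in VN, 26 were pectin genes (14%), although pectin genes are 0.926% of the table, while none of the 83 genes at that level in SC was one. Between 12 and 13 pectin genes ranked among the 50 most abundant genes of each VN library, and none did in any SC library.

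Of the 256 genes, 37 were listed at 0 in all 6 libraries, 130 were above 0 somewhere without reaching 1 TPM in 2 libraries, and 89 passed that filter and were tested. A gene was called different when its difference of log2(TPM + 1), SC minus VN, exceeded 1 in size and its adjusted p was below 0.01. This scale understates the change of genes at low levels. By this rule 16 of the 89 tested genes were higher in SC (18%), beside 29.2% of all 10955 genes tested, and 52 were higher in VN (58.4%), beside 35.6% of all genes tested. The median log2 fold change was -2.90 over the tested pectin genes and -0.55 over all tested genes. Quantile normalization moved the median of all tested genes to -0.13 and median centring to -0.03, with 18 and 20 pectin genes higher in SC and 50 higher in VN under both. SC and VN libraries did not overlap in 74 of the 89 tested pectin genes, among them all 68 called ones, nor in 8468 of all 10955 genes tested. Since a gene could pass the filter through the cell type where it is high, these shares describe the tested genes and not the family.

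The levels of the called genes differed by direction. The 16 genes higher in SC had a median SC mean of 11.6 TPM, and their highest mean was 67.1 TPM. The 52 genes higher in VN had a median VN mean of 1035 TPM, with 26 at 1000 TPM or more, and reached 10704 TPM. Genes higher in VN supplied 92.2% to 94.4% of all pectin transcripts in SC libraries too, and 99.9% in VN libraries. Of the 10 pectin genes with the highest means in SC and the 10 with the highest means in VN, 9 were shared.

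**Figure D1:**
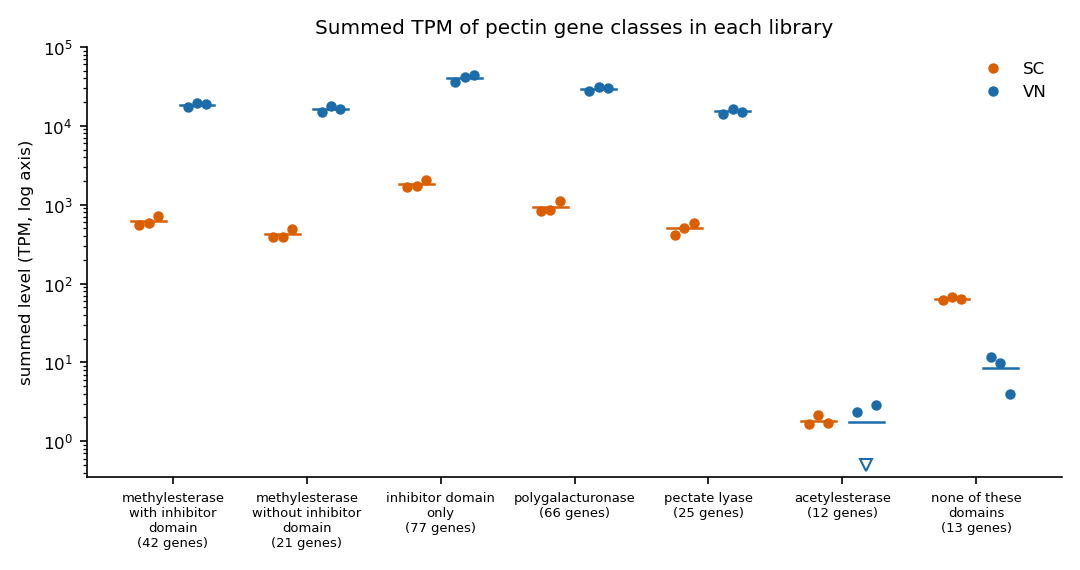
Summed level of each domain class in each library, on a log axis in TPM, with 3 SC libraries left of 3 VN libraries; a line marks the mean of 3 libraries and the open triangle a sum listed at 0. The 5 large classes sat between 385 and 2030 TPM in SC and between 14337 and 44152 TPM in VN, while genes with none of the domains were higher in SC.

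All 5 large classes stood higher in VN in sum. Inhibitor-domain genes were the most abundant class in both cell types, with 1692, 1713 and 2030 TPM in SC against 36152, 42019 and 44152 TPM in VN. Polygalacturonases followed with 835, 863 and 1104 TPM in SC, against 27410, 30698 and 30045 TPM in VN. PMEs with a prodomain reached 558, 592 and 725 TPM in SC and 17542, 19631 and 18689 TPM in VN. The mean VN sum was 22.5 times the SC sum for inhibitor-domain genes, 29.8 times for PMEs with a prodomain, 30.6 times for pectate lyases, 31.5 times for polygalacturonases and 39.0 times for PMEs without a prodomain. The division of pectin transcripts among classes differed in part. Inhibitor-domain genes made up 40.6% to 42.9% of them in SC and 32.7% to 35.5% in VN, polygalacturonases 20.9% to 22.1% in SC and 24.2% to 24.8% in VN, and PMEs without a prodomain 9.45% to 9.79% in SC and 13.3% to 14% in VN. PMEs with a prodomain made up 14.2% to 14.5% in SC and 15% to 15.9% in VN. For these classes the SC and VN libraries did not overlap. Pectate lyases made up 10.4% to 12.1% in SC and 12% to 13.1% in VN, and their libraries did overlap. No test was run on these sums or shares.

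PMEs of both kinds contained genes high in VN. Of 17 tested PMEs with a prodomain, 4 were higher in SC (23.5%) and 11 in VN (64.7%). Their median log2 fold change was -2.48. Of 8 tested PMEs without a prodomain, 1 was higher in SC (12.5%) and 6 in VN (75%), with a median of -5.24. Over all genes tested, the shares were 29.2% and 35.6%. VGD1 (AT2G47040), a PME needed for growth of the tube through the style, had 217, 226 and 324 TPM in SC, against 8351, 9535 and 8860 TPM in VN. Its neighbour VGDH1 (AT2G47030), a close homologue, had 95.4, 102 and 124 TPM in SC, against 3532, 3665 and 3939 TPM in VN. Both genes were thus more than an order of magnitude lower in every SC library, with log2 fold changes of -5.14 ± 0.17 (SE, adjusted p = 2.59e-07) and -5.11 ± 0.15 (adjusted p = 2.51e-07). PME13 (AT2G26450) had 31.3, 42.3 and 36.9 TPM in SC and 1660, 1829 and 1553 TPM in VN. The largest falls among PMEs with a prodomain were those of AT4G15980, with a mean of 3.50 ± 1.76 TPM in SC and 329 ± 101 TPM in VN (SD, n = 3 each), and of PME28 (AT5G27870), with 13.5 ± 0.597 TPM in SC and 956 ± 117 TPM in VN. Their log2 fold changes were -6.23 ± 0.37 and -6.04 ± 0.18 (adjusted p = 2.04e-06 and 2.51e-07). PME23 (AT3G06830) averaged 3.28 ± 1.19 TPM in SC and 196 ± 35.6 TPM in VN, but 2210 bases of it overlap AT3G06820 on the other strand. Smart-seq2 does not mark strand, so reads of the pair cannot be told apart.

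Among PMEs without a prodomain, the most abundant were PME48 and PME50. PME48 (AT5G07410), a PME of the pollen grain that acts on homogalacturonan before germination, had 149, 125 and 175 TPM in SC, against 5485, 5789 and 6856 TPM in VN. PME50 (AT5G07430) had 142, 160.1 and 219 TPM in SC, against 5318, 7756 and 5547 TPM in VN. PPME1 (AT1G69940), a pollen PME that shapes the growing tube, had 24.9, 22.2 and 28.6 TPM in SC and 1427, 1161 and 1401 TPM in VN. It had the most negative fold change of this class, at -5.67 ± 0.18 (adjusted p = 2.51e-07), next to PME67 (AT3G17060) at -5.53 ± 0.16 (adjusted p = 2.51e-07) and AT5G61680 at -5.41 ± 0.30 (adjusted p = 1.3e-06). PME49 (AT5G07420) lies between PME48 and PME50 on chromosome 5 and was far less abundant, with 6.52 ± 0.337 TPM in SC and 179 ± 36.0 TPM in VN.

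PPME1 and PME48 share 96.6% of their aligned coding bases, with an unbroken shared run of 89 bases. The reads of the study were longer than this run before trimming, so only a shortened read could lie wholly within it. The first 120 coding bases of both (RefSeq, TAIR10.1) are given to show how few positions separate them, with the 8 differing bases in capitals. PPME1 lies at chr1:26343275-26345058 on the minus strand and PME48 at chr5:2345758-2347565 on the plus strand.
PPME1 AT1G69940: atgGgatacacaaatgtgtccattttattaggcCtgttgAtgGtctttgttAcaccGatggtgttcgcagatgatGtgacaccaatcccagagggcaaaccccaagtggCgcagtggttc
PME48 AT5G07410: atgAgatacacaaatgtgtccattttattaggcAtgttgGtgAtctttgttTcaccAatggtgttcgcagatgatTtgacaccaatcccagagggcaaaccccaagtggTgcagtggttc
How reads were divided between these 2 genes was not tested. Their individual levels are uncertain to that extent, whereas both were in the same direction. VGD1 and VGDH1 share 89.98% of aligned coding bases and a run of 74 bases.

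The other direction was found for 5 PMEs, all at low or moderate levels. ATPMEPCRD (AT2G43050), a PME with a prodomain, was the most abundant pectin gene among those higher in SC, with 71.8, 71.7 and 57.9 TPM in SC against 0.558, 2.35 and 4.14 TPM in VN. Its log2 fold change was 4.50 ± 0.43 (adjusted p = 2.86e-05). PME7 (AT1G02810) had 18.4, 23.2 and 25.2 TPM in SC, against 0.0530 TPM in 1 VN library and 0 in the other two, with a log2 fold change of 4.50 ± 0.28 (adjusted p = 2.58e-06). The SC libraries were well above the VN libraries for both genes. AT5G09760 had 13.2, 14.1 and 7.2 TPM in SC and 2.49, 0.262 and 0.0155 TPM in VN (log2 fold change ± SE, here and in later parentheses, 2.88 ± 0.52, adjusted p = 0.00114). PME12 (AT2G26440) had 6.28, 6.04 and 3.33 TPM in SC and 0.393, 0 and 1.17 TPM in VN (2.07 ± 0.40, adjusted p = 0.0018). PME31 (AT3G29090), the only gene without a prodomain among them, had 6.80, 4.36 and 3.95 TPM in SC and 1.03, 0 and 0.522 TPM in VN (2.02 ± 0.38, adjusted p = 0.00148). Some of these last calls were lost in other settings. With a pseudocount of 0.1, adjusted p was 0.0113 for PME12 and 0.0115 for PME31, and with no filter it was 0.0102 for PME12. Leaving out 1 SC library also removed calls. Without SC replicate 1, adjusted p was 0.011 for AT5G09760, 0.013 for PME12 and 0.0103 for PME31, and without SC replicate 2 it was 0.0115 for AT5G09760 and 0.013 for PME12. PME31 kept its call without SC replicate 2, and all 3 genes kept theirs without SC replicate 3.

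Genes with an inhibitor domain alone were the largest class. Of 77, 21 were listed at 0 everywhere and 28 were tested. Of these 28, 2 were higher in SC (7.14%, beside 29.2% of all genes tested) and 18 in VN (64.3%, beside 35.6%). The median log2 fold change of the 28 was -4.25. AT2G47050, which lies beside VGD1, was the most abundant pectin gene in every SC library, with 482, 550.4 and 597 TPM, and had 8294, 11705 and 10071 TPM in VN. AT5G50030 had 287, 257 and 336 TPM in SC, against 5772, 6222 and 6024 TPM in VN. AT1G10770 had 345, 298 and 346 TPM in SC, against 4868, 5480 and 7197 TPM in VN. These genes were high in all VN libraries and had log2 fold changes of -4.20 ± 0.16, -4.36 ± 0.14 and -4.13 ± 0.17 (adjusted p = 2.97e-07, 2.51e-07 and 3.52e-07). PMEI1 (AT1G48020), an inhibitor shown to block PMEs of Arabidopsis, averaged 131 ± 13 TPM in SC and 3071 ± 371 TPM in VN, a change of -4.54 ± 0.15 (adjusted p = 2.59e-07). PMEI2 (AT3G17220), its close relative known to inhibit PPME1, was listed at 0 in all 6 libraries.

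The largest falls of all pectin genes were also in this class, in a pair of neighbours. AT2G31425 had 2.11, 4.36 and 4.54 TPM in SC, against 454, 408 and 386 TPM in VN. PMEI5 (AT2G31430) had 4.79, 5.99 and 5.28 TPM in SC, against 501, 588 and 467 TPM in VN. Their log2 fold changes were -6.52 ± 0.28 (adjusted p = 3.93e-07) and -6.35 ± 0.20 (adjusted p = 2.51e-07). AT2G47340 changed by -5.40 ± 0.21 (adjusted p = 3.23e-07) and AT4G02250 by -5.33 ± 0.19 (adjusted p = 2.93e-07), the second of them with 131 ± 21.9 TPM in SC beside 5304 ± 1047 TPM in VN. The 2 inhibitors higher in SC were PMEI6 (AT2G47670), known for its part in seed coat mucilage, and AT3G62820. PMEI6 had 16.3, 7.46 and 11.6 TPM in SC against 0, 0 and 1.53 TPM in VN (3.17 ± 0.47, adjusted p = 0.000375), and AT3G62820 had 3.50, 2.46 and 3.91 TPM in SC and was listed at 0 in every VN library (adjusted p = 0.000346). These 2 genes are each other's nearest relatives in coding sequence, with 72.0% identity.

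**Figure D2:**
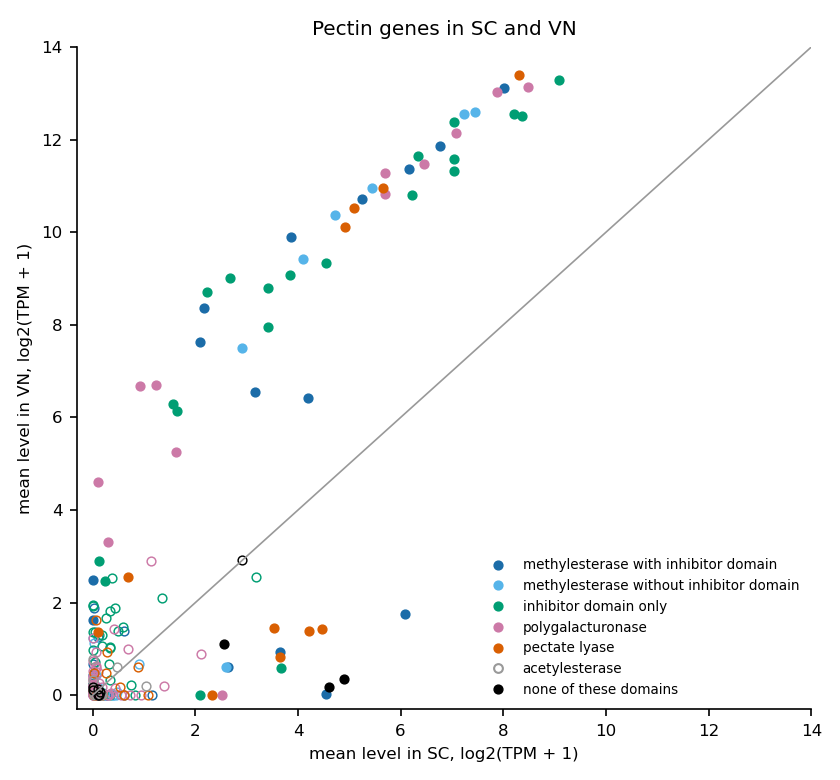
Mean level of each pectin gene above 0 in some library, with SC on the horizontal and VN on the vertical axis, both as log2(TPM + 1); colours give the domain class, filled points are genes called different and open points genes not called or not tested, and the line marks equal levels. Genes higher in VN form a band that runs parallel to the line of equal levels up to 10704 TPM, and genes higher in SC lie near the bottom, none above 67.1 TPM in SC.

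Most tested polygalacturonases were higher in VN. Of 17 tested genes with the GH28 domain, 1 was higher in SC (5.88%, beside 29.2% of all genes tested). In VN 11 were higher (64.7%, beside 35.6%), and 5 were not called. The median log2 fold change was -4.35, while 42 more genes stayed under the filter. AT3G07820 had 305, 329 and 439.8 TPM in SC, against 8702, 10164 and 8264 TPM in VN, a change of -4.67 ± 0.17 (adjusted p = 2.86e-07). PGA4 (AT1G02790), a polygalacturonase of pollen, had 196, 227 and 277 TPM in SC, against 6960, 8825 and 9378 TPM in VN, a change of -5.16 ± 0.18 (adjusted p = 2.59e-07). Both were among the 5 most abundant pectin genes in VN. AT2G23900, a GH28 gene at 50.6 ± 10.2 TPM in SC and 2483 ± 444 TPM in VN, fell by 5.59 ± 0.20 on the log2 scale (adjusted p = 2.93e-07). AT3G07830 had 0.876, 0.879 and 0.913 TPM in SC, against 98.0, 108 and 98.4 TPM in VN, and AT3G06770 had 1.12, 0.829 and 2.14 TPM in SC, against 123, 81.4 and 105 TPM in VN. Their log2 fold changes were -5.76 ± 0.23 (adjusted p = 3.39e-07), the most negative of the class, and -5.48 ± 0.31 (adjusted p = 1.4e-06).

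The only polygalacturonase higher in SC was AT2G43880, with 5.81, 3.58 and 4.90 TPM in SC and a listing at 0 in every VN library (adjusted p = 0.000123). AT3G07850 had 135, 125 and 141 TPM in SC, against 4649, 3828 and 5048 TPM in VN (-5.06 ± 0.15, adjusted p = 2.51e-07). AT3G14040, another gene of the class, had 86.8 ± 15.5 TPM in SC and 2851 ± 395 TPM in VN. It shares 97.2% of its aligned coding bases with AT3G07850 and an unbroken run of 119 bases. The reads of the study were longer than this run before trimming. How they were divided between the 2 genes was not tested, so both levels are uncertain to that extent. The first 120 coding bases of this pair (RefSeq, TAIR10.1) differ at 2 positions, in capitals, which shows how few positions separate them there. AT3G14040 was named for this likeness after its values were seen. AT3G07850 lies at chr3:2505546-2507558 and AT3G14040 at chr3:4648236-4650319, both on the minus strand.
AT3G07850: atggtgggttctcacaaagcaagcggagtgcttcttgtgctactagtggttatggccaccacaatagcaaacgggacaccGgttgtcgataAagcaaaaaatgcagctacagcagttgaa
AT3G14040: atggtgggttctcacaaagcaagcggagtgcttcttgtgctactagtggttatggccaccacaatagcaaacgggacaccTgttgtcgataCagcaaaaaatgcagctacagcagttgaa

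Among the 5 large classes, pectate lyases were the most evenly divided, with shares near those of all tested genes. Of 25, 14 were tested. Of these 14, 5 were higher in SC (35.7%, beside 29.2% of all genes tested) and 6 in VN (42.9%, beside 35.6%). The median log2 fold change of the 14 was -0.48, beside -0.55 over all tested genes. The 4 abundant ones were all higher in VN. AT3G01270 was the most abundant pectin gene in every VN library. It had 245, 310.3 and 397 TPM in SC, against 9927, 11814 and 10371 TPM in VN (-5.10 ± 0.19, adjusted p = 2.92e-07). AT59 (AT1G14420), a lyase described from pollen, had 46.7, 49.5 and 52.8 TPM in SC, against 1865, 2141 and 1908 TPM in VN (-5.28 ± 0.15, adjusted p = 2.51e-07). AT5G15110 averaged 33.3 ± 1.81 TPM in SC and 1459 ± 79.6 TPM in VN, and AT2G02720 averaged 29.0 ± 3.91 TPM in SC and 1113 ± 38.3 TPM in VN, although 1271 bases of AT2G02720 overlap genes on the other strand. PMR6 (AT3G54920), a lyase-like gene whose loss gives resistance to powdery mildew, was called higher in VN at very low levels, with 0.0843, 0 and 0.137 TPM in SC against 2.1, 1.64 and 1.02 TPM in VN (-1.25 ± 0.32, adjusted p = 0.00703). This call was lost under quantile normalization (adjusted p = 0.0221), under median centring (adjusted p = 0.0719) and with no filter (adjusted p = 0.0402). It was also lost without SC replicates 1, 2 or 3 or VN replicate 1 (adjusted p = 0.0168, 0.019, 0.0123 and 0.0221). Of PMR6, 810 bases overlap a gene on the other strand.

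The 5 pectate lyases higher in SC lay between 4.03 and 21.2 TPM in SC on average. AT1G67750 had 18.3, 22.6 and 22.8 TPM in SC, against 2.48, 0.338 and 2.27 TPM in VN (3.16 ± 0.41, adjusted p = 0.000175). AT4G13710 had 11.9, 10.8 and 12.1 TPM in SC, against 1.37, 0 and 0.977 TPM in VN (2.91 ± 0.38, adjusted p = 0.000184). AT3G24670 had 16.3, 23.1 and 13.5 TPM in SC, against 1.89, 1.39 and 1.56 TPM in VN (2.81 ± 0.30, adjusted p = 5.72e-05). All SC libraries were above all VN libraries for these genes, and 212 bases of AT3G24670 overlap genes on the other strand. AT5G04310 had 3.64, 4.90 and 3.54 TPM in SC and was listed at 0 in every VN library (adjusted p = 0.000158). AT1G04680 had 8.33, 11.9 and 11.4 TPM in SC, against 0.863, 0 and 4.38 TPM in VN (2.41 ± 0.58, adjusted p = 0.00555), and this call did not hold without any of SC replicates 1, 2 and 3 or VN replicates 1 and 2 (adjusted p = 0.0226, 0.0341, 0.0348, 0.0239 and 0.0127). None of these 5 genes has a symbol in the table.

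Pectin acetylesterases were close to absent from both cell types. Of 12 genes, 2 were listed at 0 everywhere, 9 stayed under the filter and 1 was tested and not called. The class summed to 1.66, 2.13 and 1.70 TPM in SC, against 2.36, 0 and 2.86 TPM in VN, with overlapping libraries. Of the 13 genes with none of the enzyme or inhibitor domains, only 4 were tested. Of these 4, 3 were higher in SC (75%, beside 29.2% of all genes tested) and 0 in VN (beside 35.6%). The sum of the 13 was 61.6, 67.7 and 62.8 TPM in SC against 11.6, 9.82 and 3.96 TPM in VN. PG2 (AT1G70370), described as polygalacturonase 2 but annotated with a BURP domain, a feature of the non-catalytic subunit of tomato polygalacturonase, had 29.5, 25.7 and 31.4 TPM in SC, against 0.848, 0 and 0 TPM in VN. Its log2 fold change of 4.60 ± 0.34 was the most positive of all pectin genes (adjusted p = 6.25e-06). AT4G02370, a protein of unknown function described as pectinesterase, had 22.4, 26.4 and 21.6 TPM in SC, against 0.399, 0 and 0 TPM in VN (4.45 ± 0.30, adjusted p = 3.45e-06). AT5G23390, described as a polygalacturonase inhibitor, had 3.73, 6.70 and 4.19 TPM in SC, against 2.1, 1.04 and 0.310 TPM in VN (1.5 ± 0.41, adjusted p = 0.00987), and the call was lost on leaving out any single library except VN replicate 1, with adjusted p = 0.0278, 0.0523 and 0.0343 without SC replicates 1, 2 and 3 and 0.0225 and 0.0202 without VN replicates 2 and 3. Of the 16 genes higher in SC, 13 thus carry one of the enzyme or inhibitor domains and 3 are pectin genes by description only.

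**Figure D3:**
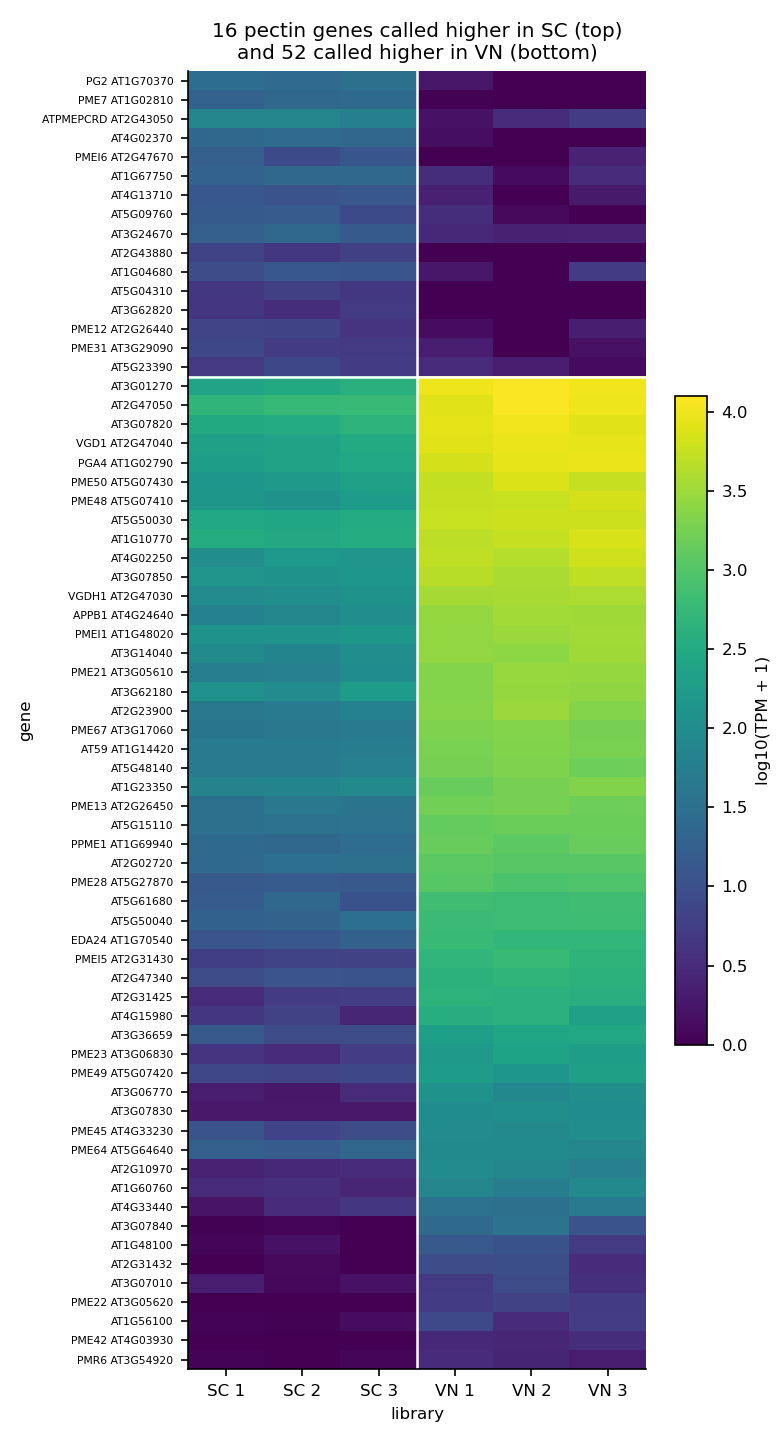
Level of each of the 68 called pectin genes in each library as log10(TPM + 1), with 3 SC libraries left of 3 VN libraries; the 16 genes higher in SC are above the white line, ordered by fold change, and the 52 genes higher in VN below it, ordered by their VN mean. Rows below the line grow darker in SC and VN columns together, and replicates of 1 cell type look alike.

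Many pectin genes lie side by side in the genome. With at most 1 other protein-coding gene allowed between members, 109 of the 256 genes fell into 41 runs, the largest of 7 genes. The runs held 3 of the genes higher in SC and 22 of those higher in VN. In 6 runs more than 1 gene was higher in VN, and 2 runs held a gene of each direction. With so few genes higher in SC, these counts say nothing of whether neighbours share a direction. On chromosome 2, VGDH1, VGD1 and AT2G47050 (19324134 to 19332659, TAIR10.1) were all higher in VN. On chromosome 5, so were PME48, PME49 and PME50 (2345758 to 2354338), but PME49 averaged 179 TPM in VN beside 6043 TPM for PME48 and 6207 TPM for PME50. Levels within the polygalacturonase run on chromosome 3 (2496331 to 2507558) differed further: AT3G07820 averaged 9043 ± 995 TPM in VN, AT3G07830 averaged 101 ± 5.66 TPM and AT3G07850 averaged 4508 ± 622 TPM.

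The 2 runs with both directions each joined a gene higher in SC to one higher in VN. PME12, higher in SC, lies directly before PME13, higher in VN, on chromosome 2 (11247160 to 11253612), and both are PMEs with a prodomain. PME7, higher in SC, and PGA4, higher in VN, lie in 1 run on chromosome 1 (610363 to 623054). In PME12 the SC mean was 5.22 ± 1.64 TPM and the VN mean 0.522 ± 0.597 TPM, whereas in PME13 the SC mean was 36.8 ± 5.50 TPM and the VN mean 1681 ± 139 TPM. The fourth gene of the PGA4 run, AT1G02816, described as pectinesterase and without a PME domain, had overlapping levels of 5.78, 8.11 and 5.6 TPM in SC and 7.39, 8.77 and 3.43 TPM in VN (adjusted p = 0.897). It was named here after its values were seen.

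**Figure D4:**
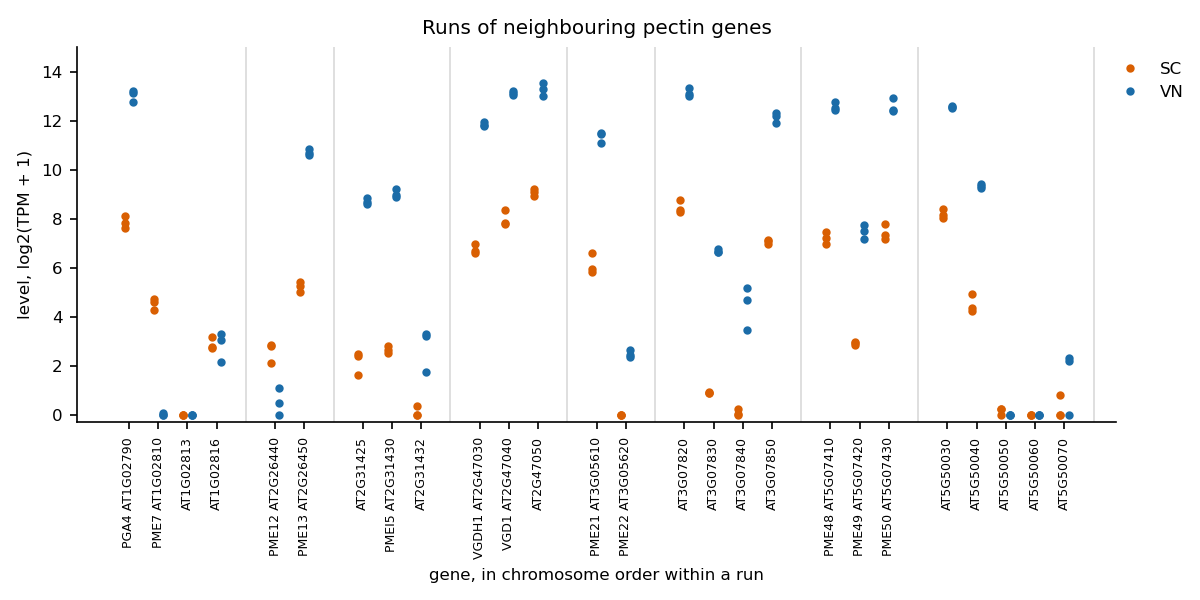
Levels of pectin genes in the 8 runs that held more than 1 gene higher in VN or genes of both directions, as log2(TPM + 1), in chromosome order within each run; each point is 1 library, SC left of VN for each gene, and grey lines separate runs. PME7 and PME12 are the genes whose SC points lie above their VN points and do not overlap them.

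The 250 bases before the annotated start of each gene (RefSeq, TAIR10.1) were searched on both strands for 5 short motifs chosen with the levels known. The MEF2-type CArG box, the site of the MADS-domain factor complexes that act in late pollen, occurred before 0 of 16 pectin genes higher in SC and 8 of 52 higher in VN (15.4%). It occurred before 14 of all 256 pectin genes (5.47%), 32 of the 3201 genes of all kinds higher in SC that had a window (1%), 180 of 3901 higher in VN (4.61%) and 595 of 27444 protein-coding genes (2.17%). Of the 8 genes, 3 were among the 5 most abundant pectin genes in VN: AT3G01270, VGD1 and PGA4. The boxes are shown because these genes lead the VN levels given above, with the box in capitals and up to 25 bases on each side, 5′ to 3′ on the strand of the gene.
PGA4 AT1G02790, chr1:612325-612379, minus strand: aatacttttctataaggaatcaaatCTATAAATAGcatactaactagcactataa
VGD1 AT2G47040, chr2:19330220-19330279, minus strand: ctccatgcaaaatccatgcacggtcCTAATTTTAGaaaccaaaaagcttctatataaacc
AT3G01270, chr3:84939-84998, minus strand: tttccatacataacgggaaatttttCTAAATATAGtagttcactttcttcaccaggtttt
PME13 AT2G26450, chr2:11250954-11251013, plus strand: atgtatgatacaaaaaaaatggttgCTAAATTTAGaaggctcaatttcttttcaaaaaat
AT4G02250, chr4:983756-983815, plus strand: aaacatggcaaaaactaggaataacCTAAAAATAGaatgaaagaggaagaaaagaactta
AT5G50030, chr5:20354458-20354517, plus strand: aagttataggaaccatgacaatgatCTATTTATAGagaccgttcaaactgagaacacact
AT5G50040, chr5:20356802-20356861, plus strand: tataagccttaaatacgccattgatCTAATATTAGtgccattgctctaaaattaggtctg
AT1G60760, chr1:22365739-22365798, plus strand: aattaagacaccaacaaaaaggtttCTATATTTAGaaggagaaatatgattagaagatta
The box ended 21 bases before the annotated start in PGA4, 48 in VGD1, 63 in AT3G01270 and 52 in PME13, and 180 in AT4G02250. AT5G50030 and AT5G50040 are neighbours, and AT5G50040 holds another box 20 bases before its start. AT5G50040 and AT1G60760, both inhibitor-domain genes, were named after their motifs were seen: AT5G50040 averaged 22.3 ± 6.59 TPM in SC and 645 ± 31.3 TPM in VN, and AT1G60760 averaged 2.13 ± 0.401 TPM in SC and 69.1 ± 16.8 TPM in VN. The letters AGAAA, a pollen element known from tomato, occurred before 12 of 16 pectin genes higher in SC and 47 of 52 higher in VN (90.4%), beside 82.8% of all protein-coding genes. AACCG, the core of the site of the sperm regulator DUO1, occurred before 6 of 16 pectin genes higher in SC (37.5%) and 8 of 52 higher in VN (15.4%), beside 32.3% of all genes higher in SC and 24.7% of all higher in VN. GTGA occurred before 13 of 16 pectin genes higher in SC (81.2%) and 41 of 52 higher in VN (78.8%), beside 77.8% of all protein-coding genes, and TATAAA before 8 of 16 and 26 of 52 (50% of each), beside 47.2%. A match is a string of letters and was not tested as a site.

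Across all 52 genes higher in VN, the SC mean was 0% to 20.5% of the VN mean, with a median of 2.66%, and 44 of them lay between 1% and 6%. Among the 39 of them with a VN mean of at least 100 TPM, the SC mean was 0.877% to 5.64% of the VN mean, with a median of 2.60% and quartiles of 2.14% and 3.25%. Among all 1031 genes higher in VN at that level the median was close, at 2.52%, but the quartiles were wider, at 0.885% and 5.42%. A proportion between 1% and 6% was found for 37 of the 39 pectin genes (94.9%) and for 527 of the 1031 genes (51.1%). These bounds lie close to the range of the 39 genes given above. A high share of pectin genes within them was therefore built in, and no conclusion is drawn from the contrast. Across these 39 genes the log10 means in SC and VN had a Pearson correlation of 0.973, and across the 1028 genes with a mean above 0 in SC one of 0.623. These correlations are across genes that share the same libraries, and genes are not independent replicates. The 39 pectin genes and the 1031 genes also differ in level. A VN mean of at least 1000 TPM was reached by 26 of the 39, but by only 186 genes of all kinds. What part level takes in the narrower quartiles and the higher correlation was not tested. No test was run on the spread of these proportions.

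These proportions were set beside those of the 9 vegetative cell markers. Their SC mean was 0.145% to 8.60% of their VN mean, with a median of 1.89%, and none was at 0 in every SC library. In sum the markers in SC libraries 1, 2 and 3 stood at 1.61%, 1.94% and 2% of their VN mean, and the 52 pectin genes higher in VN stood at 3.03%, 3.16% and 3.92% of theirs. SC library 3 was the highest of the SC libraries by both measures. Whether vegetative RNA in the SC libraries takes part in the SC level of these pectin genes was not tested. The reverse proportion was more spread, with VN means of 0% to 23.7% of SC means over the 16 genes higher in SC. Sperm cell markers had VN means of 0.346% to 7.82% of their SC means, and their part in the VN level of these 16 genes was not tested either.

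**Figure D5:**
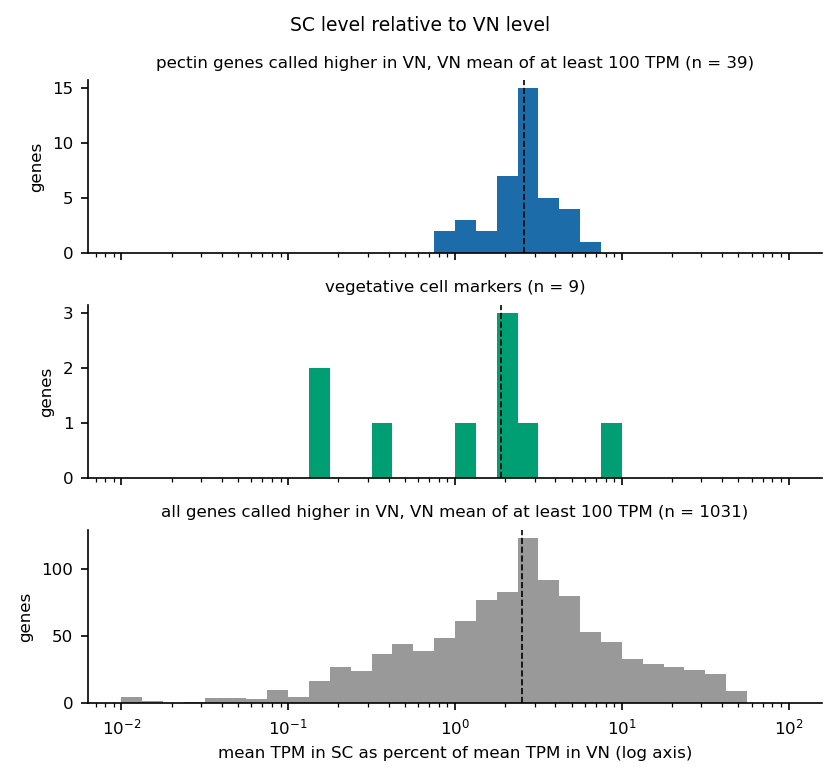
Mean TPM in SC as a percent of mean TPM in VN, on a log axis, for 39 pectin genes (top), the 9 vegetative cell markers (middle) and 1031 genes of all kinds (bottom); pectin genes and genes of all kinds are those higher in VN with a VN mean of at least 100 TPM, bars count genes and dashed lines mark medians. Values under 0.01% are drawn at 0.01%, and the medians are 2.60%, 1.89% and 2.52%.

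Enzymes that build pectin were compared through a list of 54 genes chosen by name and description, with the genes above left out. By its words the list also took in 7 rhamnogalacturonate lyases, which cut pectin and do not build it. Of the 54 genes, 26 were tested. Among these 26, 4 were higher in SC (15.4%, beside 29.2% of all genes tested) and 14 in VN (53.8%, beside 35.6%). The median log2 fold change of the 26 was -1.83, beside -0.55 over all tested genes. These values include 2 tested lyases, of which 1 was higher in SC and 0 in VN. The epimerases that make UDP-galacturonate, the precursor of homogalacturonan, were all higher in VN where tested, 5 of 5. GAE2 (AT1G02000) had 35.1, 25 and 35.2 TPM in SC, against 814, 943 and 824 TPM in VN, and GAE1 (AT4G30440) had 4.91, 4.69 and 9.24 TPM in SC, against 296, 445 and 252 TPM in VN. Of 14 tested galacturonosyltransferases, 1 was higher in SC (7.14%, beside 29.2% of all genes tested) and 7 in VN (50%, beside 35.6%). GAUT13 (AT3G01040), which acts with GAUT14 in pectin synthesis of the pollen tube, had the steepest change, with 1.52, 1.65 and 2.34 TPM in SC against 552, 524 and 445 TPM in VN (-7.49 ± 0.23, adjusted p = 2.51e-07), and GAUT14 (AT5G15470) had 1.83, 1.84 and 1.76 TPM in SC against 314, 296 and 209 TPM in VN (-6.59 ± 0.24, adjusted p = 2.97e-07). GAUT1 (AT3G61130), a synthase of homogalacturonan, overlapped between cell types, with 33.1, 25.5 and 24.7 TPM in SC and 22.7, 10.5 and 25.2 TPM in VN (adjusted p = 0.169).

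The 4 listed genes higher in SC were of different kinds. RHM3 (AT3G14790), which makes UDP-rhamnose, had 90.8, 93.0 and 77.4 TPM in SC, against 20.5, 22.1 and 18.4 TPM in VN (2.05 ± 0.21, adjusted p = 3.97e-05), while its homologue RHM2 (AT1G53500) had 7.25, 4.72 and 4.62 TPM in SC, against 488, 403 and 306 TPM in VN (-5.93 ± 0.27, adjusted p = 4.96e-07). Members of 1 enzyme family were thus higher in different cell types. GAUT7 (AT2G38650), which anchors GAUT1 in the Golgi, had 18.3, 14.5 and 11.1 TPM in SC, against 1.18, 0.622 and 2.09 TPM in VN (2.79 ± 0.35, adjusted p = 0.000146). AT4G37950, a rhamnogalacturonate lyase, had 13.2, 11.1 and 18 TPM in SC and was listed at 0 in every VN library (adjusted p = 9.11e-06), and GALS3 (AT4G20170), a galactan synthase, had 1.23, 2.63 and 1.07 TPM in SC and was listed at 0 in every VN library (adjusted p = 0.00661).

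Several well-known pectin genes of other stages and organs were near 0 in both cell types. QRT1 (AT5G55590), QRT2 (AT3G07970) and QRT3 (AT4G20050), which separate the 4 pollen grains of a tetrad earlier in the anther, did not pass the filter: QRT1 reached 1.18 TPM in 1 SC library, QRT2 1.48 TPM in 1 VN library and QRT3 0.411 TPM in 1 VN library. ADPG1 (AT3G57510), a polygalacturonase of pod and anther opening, was above 0 only in VN replicate 3, at 4.09 TPM, and ADPG2 (AT2G41850), which acts in shedding of organs, stayed at or under 0.156 TPM in SC and 0.0896 TPM in VN. PGX1 (AT3G26610), a polygalacturonase of expanding cells, stayed at or under 0.113 TPM in SC and 0.974 TPM in VN. PME3 (AT3G14310) and PME1 (AT1G53840), PMEs found widely in the plant body, reached 0.0482 and 0.134 TPM in SC and 0.994 and 0.0477 TPM in VN. PGIP1 (AT5G06860), an inhibitor of fungal polygalacturonases, was listed at 0 in all 6 libraries, and PGIP2 (AT5G06870) was above 0 only in VN replicate 3, at 0.223 TPM. No tested pectin gene with a mean of at least 10 TPM in either cell type was left uncalled.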

How the data were processed

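The authors trimmed reads with Trim Galore, assembled transcripts on TAIR10 and estimated abundance with Salmon. They deposited 1 table of TPM values per gene and library, and each of the 6 columns sums to 1000000. Counts are not part of the table, so depth and counting error are unknown, and no count test was run. How transcripts were summed into genes is not given in the sources used here. No column of per-sample values was left unmatched to a sample.

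Values were tested as log2(TPM + 1) with limma 3.58.1 (R 4.3.3, trended moderation, two-sided, Benjamini-Hochberg adjustment over all tested genes), with cell type as the only term. Tested genes had at least 1 TPM in at least 2 of 6 libraries, and a call needed a difference of more than 1 in size with an adjusted p below 0.01. The method was tested on simulated data. Replicates are described as biological, each from sorted material of 1 line. A p-value sets the difference between cell types against the spread between replicates, which is moderated over all tested genes. No sums or lists were tested.

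Symbols and descriptions are those of the deposited table. Domains, positions, strand and sequence came from RefSeq TAIR10.1, and coding sequences were compared with blastn 2.17.0. A planned split by residues of the protein was replaced by the domain notes. Named genes were those with a published role in pollen or pectin biology, all genes higher in SC, the 15 largest falls, the 10 highest means in each cell type and uncalled genes with a mean of at least 10 TPM. Genes, lists and motifs were chosen with earlier results of these data known. Alternatives were a pseudocount of 0.1, no filter, a filter in 3 libraries, quantile normalization, median centring, no trend, a replicate block and leaving out each library.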

Additional observations from a re-analysis of the deposited data

How the results depend on the processing

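The counts of called genes stayed within 1.5 times their values under all 13 alternatives. Genes higher in SC numbered 16, and 14 with a pseudocount of 0.1, 13 with no filter, 17 with the filter in 3 libraries, 18 with quantile normalization, 20 with median centring and 17 with no trend. Genes higher in VN numbered 52, and 48 with no filter, 50 with quantile normalization and median centring and 52 with the other 3 settings. Leaving out 1 library gave 12 to 15 genes higher in SC and 49 to 57 higher in VN, and 6049 to 7284 called genes of all kinds beside 7105. Of the called genes, 11 of 16 and 48 of 52 were called in every alternative, and none was called in the opposite direction in any. Those lost in some setting were AT5G23390, AT1G04680, PME12, PME31 and AT5G09760, higher in SC, and PMR6, AT3G07010, AT1G56100 and PME42, higher in VN, the last 3 named after their values were seen. PME42 was lost only with no filter (adjusted p = 0.0137), where 22718 genes were tested, and AT1G56100 there (adjusted p = 0.0126) and without SC replicate 1 or 2 (adjusted p = 0.0126 and 0.0132). AT3G07010 was lost under both scalings, with no filter and without any SC replicate or VN replicate 1 (adjusted p of 0.0126 to 0.0314). Calls higher in SC also depended on the pseudocount and the filter. AT1G04680, PME12, PME31 and AT5G23390 were lost with a pseudocount of 0.1 (adjusted p = 0.0317, 0.0113, 0.0115 and 0.0247). AT1G04680, PME12 and AT5G23390 were lost with no filter (adjusted p = 0.0208, 0.0102 and 0.0367).

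With the replicate number as a block, 15 pectin genes were higher in SC, 51 higher in VN and 6927 genes of all kinds were called. The numbers were not taken to pair the samples, since same-numbered libraries had correlations of 0.0085, -0.035 and -0.019 in their deviations from the group means, and the losses under the block were AT5G23390 (adjusted p = 0.0135) and PMR6 (adjusted p = 0.0255).

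The depth of each library is unknown, so a listing at 0 says only that no transcript was assigned. The 89 tested genes hold the abundant members, and 130 genes under the filter have no test.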

Other observations

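Among the 130 pectin genes above 0 TPM that did not pass the filter, 59 were above 0 in 1 library only. The highest single value was that of AT5G46960 (PMEI12), an inhibitor-domain gene with 0, 0.884 and 0 TPM in SC and 0, 14.4 and 0 TPM in VN. It belongs to the longest run, of 7 genes on chromosome 5, in which no gene was called. AT5G46950, its near-identical neighbour with 93.5% identity over aligned coding bases, had 0, 4.65 and 0 TPM in SC and 9.46, 0 and 0.447 TPM in VN (adjusted p = 0.676). Replicates of 1 cell type thus differed more for these genes than the cell types did. These genes were chosen after their values were seen.

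Over all 256 pectin genes, pairs of SC libraries had Pearson correlations of log2(TPM + 1) of 0.981 to 0.989, pairs of VN libraries 0.980 to 0.982, and pairs of an SC and a VN library 0.854 to 0.885. Over all genes of the table the values were 0.974 to 0.976 within SC, 0.927 to 0.938 within VN and 0.507 to 0.552 between cell types. These are correlations across genes, many of them at 0 in both libraries, and genes are not independent replicates.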
